A study of Arabidopsis thaliana with 12 samples.

Results

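The genes described here are nuclear genes of Arabidopsis thaliana whose transcripts were at least 2 times as abundant in 35S:miR396a seedlings as in wild-type Col-0 seedlings, both after light and in darkness. Membership needed a value in all 4 groups, at least 2 FPKM in both 35S:miR396a groups and a ratio of at least 2 over Col-0 in each light condition. FPKM is a count of fragments divided by transcript length and by the size of the library. Of 6046 nuclear genes with all 4 values, 169 met these values. The coactivator gene AN3 (also called GIF1) and 6 seed-reserve genes, CRA1, CRU3, SESA2, SESA5, OLEO1 and OLEO2, were set aside by name, which left 162 members. The 6 deposited tables name 11417 genes in all. The members were thus chosen by the 4 mean FPKM values themselves, so the ratios between genotypes are given as a description, with no test.

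The groups were illuminated 35S:miR396a, dark 35S:miR396a, illuminated Col-0 and dark Col-0, with 3 libraries each that the labels call biological replicates. All plants had the Columbia background and spent 4 days in darkness on a medium with 1% sucrose, and the illuminated groups then had 3 h of light. In 35S:miR396a the microRNA is driven by the 35S promoter, a viral promoter that is strong in most plant cells, so the transcript is not confined to one tissue. The sources used here do not give the number of independent transgenic lines. The labels name the tissue as hypocotyl, while the growth protocol speaks of seedlings. Of the markers looked up, the root gene PYK10 had 6636 FPKM in illuminated 35S:miR396a and 3007 FPKM in dark 35S:miR396a. The authors gave values of called genes only, and they called PYK10 in no comparison with Col-0. It was thus not called different between the genotypes in light or in the dark, and its Col-0 levels are not at hand. None of 6 root markers and 2 of 6 shoot apex markers had all 4 values. These apex genes, CUC2 and CLV3, summed to 1.69 and 1.64 FPKM in illuminated and dark 35S:miR396a, against 0.792 and 0.522 FPKM in illuminated and dark Col-0, and the part of these markers in the members' values was not tested.

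MicroRNA miR396 guides the silencing of transcripts of GROWTH-REGULATING FACTOR (GRF) genes, whose products act with GIF coactivators to sustain cell proliferation in young organs. Dark-grown seedlings elongate the hypocotyl and keep the cotyledons closed, and light starts de-etiolation, in which photosynthesis is set up and elongation slows. Wall glycoproteins, peroxidases, chitinases and indole enzymes, which recur among the members, are known in Arabidopsis for building the cell wall and for defence against microbes. The microRNA that the transgene makes is shown with its seed, bases 2 to 8, in capitals. The sequence is that of ath-miR396a-5p in the RefSeq TAIR10.1 annotation, at chr2:4142443-4142463 on the minus strand.
ath-miR396a-5p: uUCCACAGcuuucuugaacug

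Each value below is the authors' mean FPKM of a group. The tables hold no value of a single library, so no SD stands beside a mean, and no difference could be set against the spread between replicates. "Listed" means that the authors' deposited table names the gene, which each listed gene reaches with at least a 2-fold difference of either sign and a q-value of at most 0.001. Those p-values carry counting error only. All 162 members were listed higher in 35S:miR396a after light, where 41.7% of the 6046 nuclear genes were, and 161 were listed higher in the dark, where 12.0% were. The exception in the dark was AT1G53625, of unknown function, at 6.91 FPKM in 35S:miR396a and 3.42 FPKM in Col-0. Listed higher in both conditions were 6.65% of the 6046 genes, most of the others of which were under 2 FPKM in a 35S:miR396a group. The rule fixed these counts, so nothing is read from them.

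Estimated from the deposited folds and p-values, the pooled depth was about 123000000 fragments for illuminated 35S:miR396a, 116000000 for dark 35S:miR396a, 122000000 for illuminated Col-0 and 116000000 for dark Col-0. Among members whose p-value allowed an estimate, the fewest reads in a 35S:miR396a group were about 188 in light and 104 in the dark. The fewest reads in Col-0 were about 4.13 in light and 19.4 in the dark. Fewer than 30 reads in Col-0 lay behind 10 of 97 such members in light and 2 of 114 in the dark, and the ratios of those members rest on few Col-0 reads. In bulk tissue, more cells of a type and more transcript per cell cannot be told apart.

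After light, the ratio of 35S:miR396a over Col-0 had a median of 3.85 over the members and reached 197. In the dark the median was 2.59 and the highest ratio was 43.7. Over all 5831 nuclear genes with 4 values above 0, the median log2 ratio of the genotypes was 0.38 in light and -0.11 in the dark. The ratio was larger in light for 122 members and larger in the dark for 40. Both ratios reached 4 for 27 members and 10 for 8 members, and both stayed under 3 for 46. For 147 members both 35S:miR396a values lay above both Col-0 values, and for 98 the lower 35S:miR396a value was at least 2 times the higher Col-0 value. The same held for 17.1% and 5.26% of the 6046 nuclear genes, and the rule largely fixed the members' counts. The median member had 9.03 FPKM in illuminated 35S:miR396a and 8.41 FPKM in dark 35S:miR396a, against 2.02 FPKM in illuminated Col-0 and 2.90 FPKM in dark Col-0. Most members were therefore transcripts of low to moderate level. In both 35S:miR396a groups, 11 members exceeded 100 FPKM and 29 were under 5 FPKM.

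**Figure D1:**
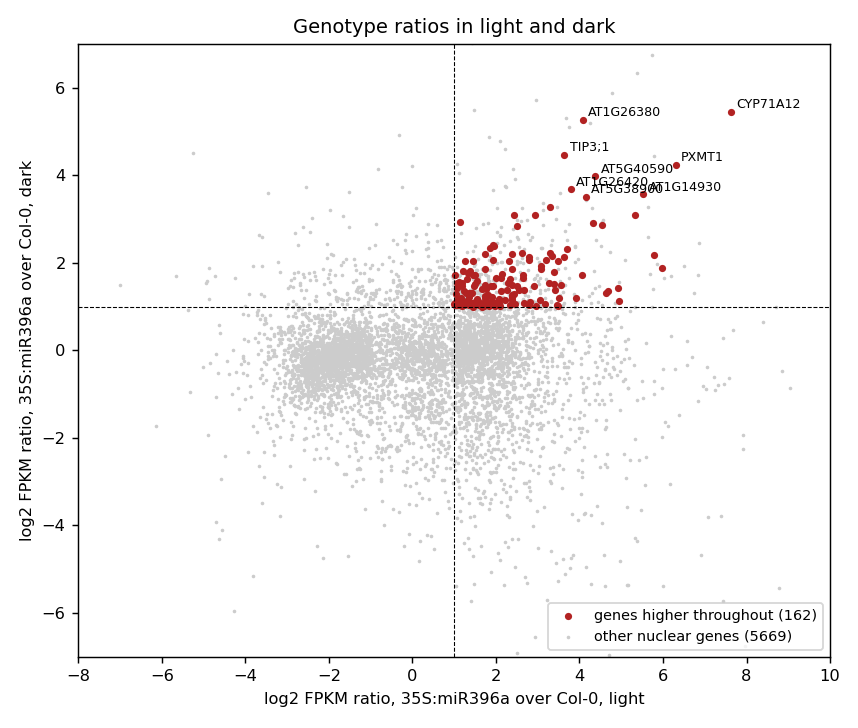
Log2 ratio of the authors' mean FPKM in 35S:miR396a over Col-0 after light (horizontal axis) and in the dark (vertical axis), 1 point per nuclear gene with 4 values above 0; dashed lines mark the ratio of 2 in each condition. The 162 members (red) fill the upper right corner by construction, the grey genes there had under 2 FPKM in a 35S:miR396a group or were set aside by name, and CYP71A12 lies farthest out among the members at ratios of 197 and 43.7. Its light ratio divides by 0.026 FPKM in illuminated Col-0.

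At the limit of the rule, the lectin receptor kinase gene AT2G19130, the leucine-rich repeat gene PIRL2 and the cytochrome P450 gene CYP705A4 were the members with the smallest ratios, at 2.002, 2.003 and 2.005. Just outside lay DOX1, an alpha-dioxygenase gene, at 1.996, the zinc transporter gene ZIP3 at 1.995 and AT1G72490 at 1.994.

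The member with the largest ratios in both conditions was CYP71A12, a cytochrome P450 that turns indole-3-acetaldoxime into indole-3-acetonitrile on the way to camalexin, the main phytoalexin of Arabidopsis. It had 5.13 FPKM in illuminated and 17.9 FPKM in dark 35S:miR396a, against 0.026 FPKM in illuminated and 0.41 FPKM in dark Col-0. The 0.026 FPKM was the lowest illuminated Col-0 value of any member, so the size of the light ratio of 197 rests on very few Col-0 reads. PXMT1, a methyltransferase of the SABATH type, had 40.1 and 58.5 FPKM in illuminated and dark 35S:miR396a, against 0.506 and 3.10 FPKM in illuminated and dark Col-0. Both genes were thus under 1 FPKM in illuminated Col-0 and above 5 FPKM in both 35S:miR396a groups. AT1G26380, also called FOX1, encodes a berberine-bridge-type oxidase of the cyanogenic indole pathway. It had 2.76 and 5.39 FPKM in illuminated and dark 35S:miR396a, against 0.163 and 0.14 FPKM in illuminated and dark Col-0. AT1G26420, a second oxidase of that family, had 3.77 and 2.85 FPKM in illuminated and dark 35S:miR396a, against 0.273 and 0.223 FPKM in illuminated and dark Col-0. AT5G40590, which encodes a protein with the cysteine- and histidine-rich C1 domain, had 3.73 and 14.4 FPKM in illuminated and dark 35S:miR396a, against 0.18 and 0.916 FPKM in illuminated and dark Col-0. In these 3 genes both 35S:miR396a means lay above both Col-0 means, as in 147 of the 162 members and 17.1% of the 6046 nuclear genes. The Col-0 values of the 3 genes stayed under 1 FPKM.

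The other members with a ratio of 10 or more in both conditions were the seed aquaporin gene TIP3;1, the polyketide cyclase-like gene AT1G14930 and the thioredoxin-like gene AT5G38900. AT1G14930 had 5.34 and 4.10 FPKM in illuminated and dark 35S:miR396a, against 0.116 and 0.346 FPKM in illuminated and dark Col-0. AT5G38900 had 6.56 and 3.41 FPKM in illuminated and dark 35S:miR396a, against 0.37 and 0.30 FPKM in illuminated and dark Col-0. Next came EPR1, a proline-rich extensin, and CCOAMT, a caffeoyl-CoA O-methyltransferase of the type that acts on lignin precursors. CCOAMT had 4.44 and 3.43 FPKM in illuminated and dark 35S:miR396a, against 0.11 and 0.40 FPKM in illuminated and dark Col-0.

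Promoter sequence played no part in the rule. Of 162 member promoters, read from 250 bases before to 50 bases after the annotated start on either strand, 85 held a W-box (TTGACC or TTGACT), the element that WRKY transcription factors bind. That share of 52.5% stood beside 27.8% of 126 nuclear genes that met the mirrored rule (lower in 35S:miR396a by at least 2 times in both conditions, with at least 2 FPKM in both Col-0 groups). It also stood beside 34.8% of the 6046 nuclear genes with 4 values and 32.4% of 27443 promoters of nuclear protein-coding genes. At least 3 matches were found in 9.26% of member promoters, 1.59% of mirrored-rule promoters, 2.17% of those of the 6046 genes and 1.48% of all promoters, a count chosen after the shares were seen. The other motifs are given for the members, the mirrored-rule genes, the 6046 genes and all promoters in that order. The RY element (CATGCA), known from seed genes, was in 16.7%, 8.73%, 12.5% and 9.72%. The ABRE core (ACGTG), known from abscisic acid responses, was in 26.5%, 37.3%, 32.7% and 26.7%, and the G-box (CACGTG), which contains it, in 3.70%, 10.3%, 10.5% and 7.68%. The TGA core (TGACG) was in 19.1%, 21.4%, 24.7% and 23.1%, and the heat-shock element (GAANNTTC) in 8.64%, 10.3%, 12.4% and 11.6%. TGTCAG, a motif of the type bound by GRF factors, was in 3.70%, 7.14%, 7.43% and 6.57%, and the telo-box (AAACCCTAA) in 0.617%, 2.38%, 2.00% and 3.60%. A match is a string of letters and shows no binding, and no test was made of these shares.

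**Figure D2:**
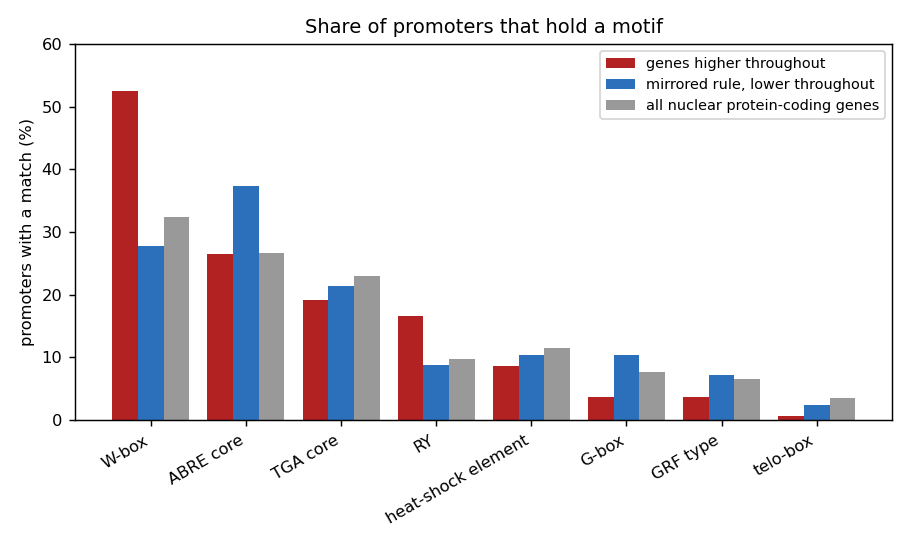
Share of promoters (%, vertical axis) that hold each of 8 motifs on either strand within 250 bases before to 50 bases after the gene start, for the members (red), mirrored-rule genes (blue) and all nuclear protein-coding genes (grey). The W-box bar of the members, at 52.5%, is the tallest and stands above 27.8% and 32.4% in the other sets, while for the G-box the members' bar, at 3.70%, is the lowest.

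The 250 bases before the start of 5 members with large ratios are shown because they hold different numbers of matches. All 5 genes lie on the minus strand, the coordinates are those of TAIR10.1, and capitals mark W-box matches, which read TTGACC or TTGACT, or GGTCAA or AGTCAA where the match is on the other strand. AT1G26420 is at chr1:9143337-9143586, AT5G40590 at chr5:16252435-16252684, GSTF7 at chr1:659981-660230, AT1G26380 at chr1:9128569-9128818 and CYP71A12 at chr2:13101372-13101621.
AT1G26420: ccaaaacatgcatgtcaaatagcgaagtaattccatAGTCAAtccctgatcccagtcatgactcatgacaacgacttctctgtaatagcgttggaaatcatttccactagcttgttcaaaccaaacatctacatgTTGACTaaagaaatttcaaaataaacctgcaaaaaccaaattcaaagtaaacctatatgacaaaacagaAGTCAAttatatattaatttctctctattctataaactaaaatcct
AT5G40590: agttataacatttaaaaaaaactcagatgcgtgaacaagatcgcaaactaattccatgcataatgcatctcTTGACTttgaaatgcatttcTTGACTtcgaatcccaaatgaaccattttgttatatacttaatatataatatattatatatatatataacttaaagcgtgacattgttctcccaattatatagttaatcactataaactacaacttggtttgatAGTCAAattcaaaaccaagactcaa
GSTF7: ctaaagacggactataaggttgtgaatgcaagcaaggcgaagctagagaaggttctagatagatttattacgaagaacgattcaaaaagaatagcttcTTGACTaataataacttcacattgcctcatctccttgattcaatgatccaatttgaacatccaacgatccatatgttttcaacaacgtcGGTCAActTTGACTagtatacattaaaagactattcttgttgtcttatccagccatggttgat
AT1G26380: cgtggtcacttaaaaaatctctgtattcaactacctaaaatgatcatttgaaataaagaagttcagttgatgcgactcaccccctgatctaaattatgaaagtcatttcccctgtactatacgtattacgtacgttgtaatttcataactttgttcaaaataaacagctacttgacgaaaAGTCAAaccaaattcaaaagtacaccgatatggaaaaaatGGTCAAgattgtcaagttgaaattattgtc
CYP71A12: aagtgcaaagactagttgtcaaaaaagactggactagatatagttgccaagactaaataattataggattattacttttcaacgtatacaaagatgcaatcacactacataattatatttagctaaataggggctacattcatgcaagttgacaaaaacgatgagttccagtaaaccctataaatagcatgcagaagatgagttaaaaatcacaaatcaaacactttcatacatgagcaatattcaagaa

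The first 3 sequences hold 3 matches each, AT1G26380 holds 2, and CYP71A12, with the largest ratios of all, holds 0 in this stretch. The set shown is not typical of the members. In these 250 bases 14.2% of the 162 members held at least 2 matches, beside 6.18% of all promoters. At least 3 were held by 8.02% of members and 1.06% of all promoters. By role, a W-box was found in 6 of 8 members of indole defence, 6 of 8 of detoxification, 5 of 7 chitinases and related hydrolases, 5 of 5 receptor-like kinases, 5 of 6 genes of late seed development and 3 of 3 germin-like proteins. It was found in 4 of 12 wall glycoproteins and 0 of 3 nuclear copies of mitochondrial genes. A W-box was in 5 of 13 nutrient and ion genes, 3 of 7 transcription factors and 3 of 5 peroxidases. It was in 3 of 4 C1 domain proteins, 2 of 3 aspartyl proteases and 1 of 2 copper genes. With bases after the start included, a W-box was in 52.5% of members, 34.8% of the 6046 nuclear genes and 32.4% of all promoters. These groups are small, and none was tested.

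For the account by role, 86 members were placed in 14 groups by their annotation, and these groups and the further members named in them were chosen after the values were seen. Counts within a group are therefore descriptions.

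The largest role group held 12 wall glycoproteins, among them extensins, which are hydroxyproline-rich structural proteins that peroxidases cross-link in the wall. Of 23 extensin-type genes with 4 values, 9 were members (39.1%), beside 2.68% of all nuclear genes with 4 values. EXT4 had 1218 and 1443 FPKM in illuminated and dark 35S:miR396a, against 282 and 461 FPKM in illuminated and dark Col-0. AT2G43150 had 1387 and 1140 FPKM in illuminated and dark 35S:miR396a, against 513 and 542 FPKM in illuminated and dark Col-0. EXT3, an extensin needed for embryonic wall assembly, had 1188 and 736 FPKM in illuminated and dark 35S:miR396a, against 359 and 260 FPKM in illuminated and dark Col-0. These 3 extensins were among the most abundant members. In each, both 35S:miR396a means lay above both Col-0 means, as in 147 of the 162 members and 17.1% of the 6046 nuclear genes. AT1G21313 lies on the opposite strand within EXT3, at 14.9 and 9.42 FPKM in illuminated and dark 35S:miR396a against 3.00 and 2.30 FPKM in illuminated and dark Col-0, and without the strand of the libraries their reads cannot be told apart. At lower levels, EPR1 had 16.6 and 6.02 FPKM in illuminated and dark 35S:miR396a, against 1.70 and 0.626 FPKM in illuminated and dark Col-0. The root-hair wall genes LRX1, EXT6 and EXT10, the fasciclin-like FLA5 and the arabinogalactan protein gene AGP3 completed the range, and over the group the ratios ran from 2.04 to 9.77 in light and from 2.10 to 9.62 in the dark.

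Class III peroxidases, secreted heme enzymes that cross-link wall polymers or make reactive oxygen in the apoplast, gave 5 members out of 31 genes with 4 values (16.1%). The share over all nuclear genes with 4 values was 2.68%. AT1G49570 had 123 and 113 FPKM in illuminated and dark 35S:miR396a, against 13.6 and 54.1 FPKM in illuminated and dark Col-0. AT5G64120 had 98.6 and 146 FPKM in illuminated and dark 35S:miR396a, against 22.2 and 43.5 FPKM in illuminated and dark Col-0. PRXCA, a peroxidase of the oxidative burst, had 10.7 and 2.34 FPKM in illuminated and dark 35S:miR396a, against 0.193 and 0.516 FPKM in illuminated and dark Col-0. In all 3 the lowest value was that of illuminated Col-0. PER4 and AT1G14550 are next to each other on chromosome 1. PER4 had 18.15 and 19.6 FPKM in illuminated and dark 35S:miR396a, against 2.87 and 7.53 FPKM in illuminated and dark Col-0, and AT1G14550 reached 3.75 FPKM at most.

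Chitinases cleave the chitin of fungal walls, and 5 of 9 chitinase genes with 4 values were members (55.6%), beside 2.68% of all nuclear genes with 4 values. AT2G43590 had 182 and 224 FPKM in illuminated and dark 35S:miR396a, against 51.6 and 92.6 FPKM in illuminated and dark Col-0. CHIA, an acidic chitinase, had 41.7 and 27.6 FPKM in illuminated and dark 35S:miR396a, against 7.996 and 11.5 FPKM in illuminated and dark Col-0. Grouped with them were the glycosyl hydrolase gene AT4G16260 and OSM34, an osmotin of the pathogenesis-related type. OSM34 had 74.7 and 64.7 FPKM in illuminated and dark 35S:miR396a, against 20.9 and 32.1 FPKM in illuminated and dark Col-0. None of the 7 genes of this group was listed as responding to light in either genotype. That also held for 51.2% of the 162 members, among them the 3 aspartyl proteases and the 2 copper genes, and for 7.82% of the 6046 nuclear genes.

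Grouped as enzymes of indole defence compounds were 8 members. Of these, AT1G26420 and AT1G30700 are annotated only as FAD-binding berberine family proteins, and their place in indole metabolism was not tested. PAD3, the P450 of the last step to camalexin, had 7.72 and 2.24 FPKM in illuminated and dark 35S:miR396a, against 0.46 and 0.683 FPKM in illuminated and dark Col-0. CYP81F2, which hydroxylates indole glucosinolates, had 5.41 and 9.47 FPKM in illuminated and dark 35S:miR396a, against 0.553 and 2.03 FPKM in illuminated and dark Col-0. IGMT2, which methylates the product of that step, had 12.3 and 7.94 FPKM in illuminated and dark 35S:miR396a, against 1.79 and 1.80 FPKM in illuminated and dark Col-0. So the enzymes of consecutive steps, CYP81F2 and IGMT2, both met the rule. Its neighbour IGMT3 had 20.9 and 10.4 FPKM in illuminated and dark 35S:miR396a, against 8.43 and 3.34 FPKM in illuminated and dark Col-0, and the 2 transcripts are 96.3% identical over 1359 bases, so reads may have been split between them. Over the group the ratios ran from 2.48 to 197 in light and from 2.34 to 43.7 in the dark.

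The detoxification group held glutathione transferases, which conjugate glutathione to reactive compounds, glucosyltransferases and an efflux carrier. GSTF2 had 480 and 309 FPKM in illuminated and dark 35S:miR396a, against 43.6 and 150 FPKM in illuminated and dark Col-0. GSTF7 had 254 and 146 FPKM in illuminated and dark 35S:miR396a, against 10.9 and 20.1 FPKM in illuminated and dark Col-0. Its neighbour GSTF6 had 190 and 76.6 FPKM in illuminated and dark 35S:miR396a, against 33.6 and 10.7 FPKM in illuminated and dark Col-0. The order of the Col-0 groups differed between these neighbours: GSTF7 was lower and GSTF6 higher in illuminated than in dark Col-0. UGT73B2, a flavonol glucosyltransferase, had 65.6 and 24.1 FPKM in illuminated and dark 35S:miR396a, against 9.35 and 11.2 FPKM in illuminated and dark Col-0. DTX1, a multidrug efflux carrier, had 29.2 and 3.25 FPKM in illuminated and dark 35S:miR396a, against 5.86 and 1.11 FPKM in illuminated and dark Col-0. Of 26 glutathione transferase genes with 4 values, 4 were members (15.4%), beside 2.68% of all nuclear genes with 4 values. Of those 26 genes, 23 were listed higher in 35S:miR396a and 2 lower in light, and 6 higher and 6 lower in the dark. Of the 6046 nuclear genes, 41.7% were listed higher in light and 12.0% in the dark.

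**Figure D3:**
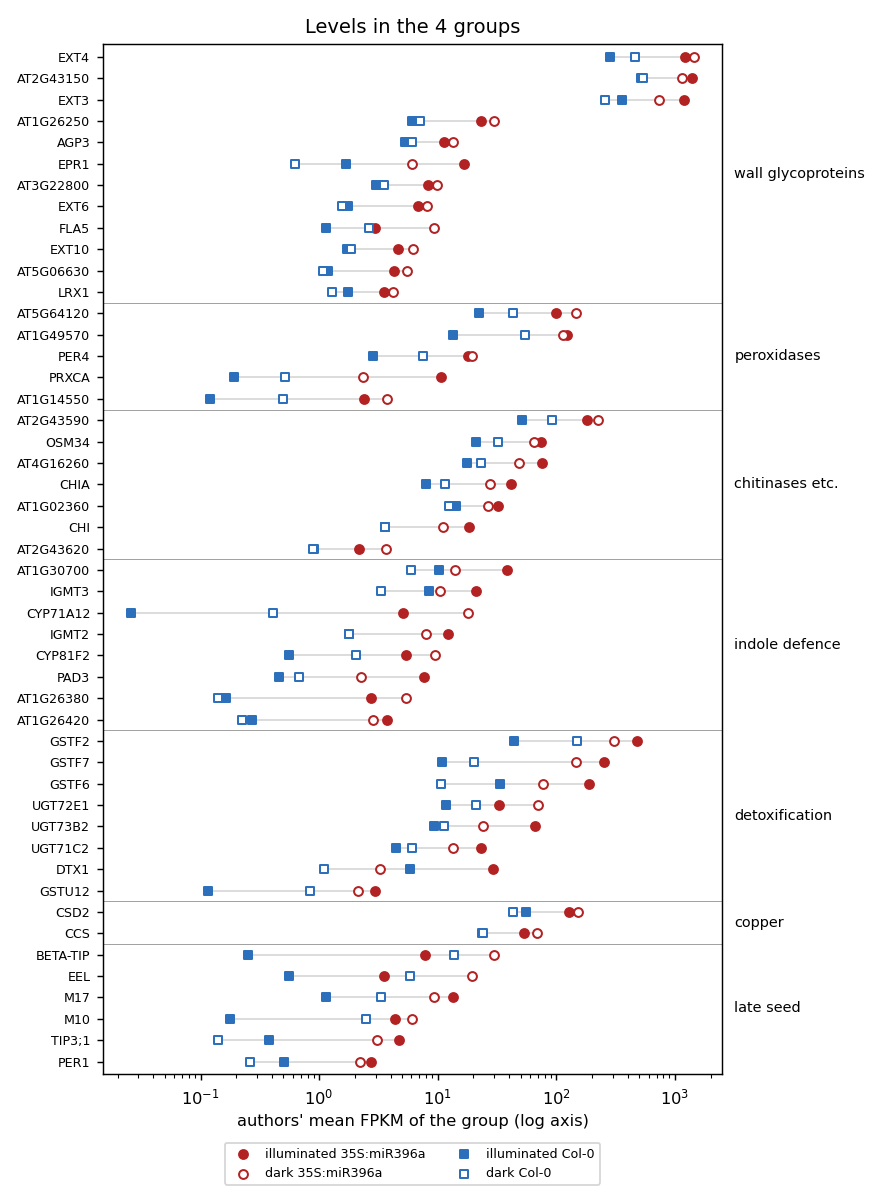
Authors' mean FPKM (horizontal log axis) of the members in 7 role groups, with 35S:miR396a in red circles and Col-0 in blue squares, filled for illuminated and open for dark; the points are group means with no error available. Red points lie right of the blue points of the same light condition in every line, from EXT3, EXT4 and AT2G43150 at the highest levels to PER1 among the lowest, and CYP71A12 shows the widest gap.

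CSD2, the chloroplast copper/zinc superoxide dismutase, and CCS, the chaperone that loads copper into such dismutases, formed a pair with similar ratios. CSD2 had 129 and 153 FPKM in illuminated and dark 35S:miR396a, against 55.7 and 43.5 FPKM in illuminated and dark Col-0. CCS had 53.9 and 69.0 FPKM in illuminated and dark 35S:miR396a, against 23.8 and 23.9 FPKM in illuminated and dark Col-0. The cytosolic enzyme gene CSD1 had 363 and 296 FPKM in illuminated and dark 35S:miR396a, against 105 FPKM in illuminated Col-0. It was listed in no comparison with dark Col-0. CSD1 was thus not called higher in dark 35S:miR396a, has no dark Col-0 level here and could not be a member. In Arabidopsis all 3 transcripts are known targets of miR398, a microRNA of copper supply whose own level was not analysed here. The microRNA, at chr5:4691107-4691127 on the plus strand of TAIR10.1, is shown with its seed in capitals, followed by the best ungapped match in CCS and in CSD2, with bases that pair with it in capitals.
ath-miR398b-3p: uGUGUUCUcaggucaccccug
CCS: attGGGaGACCTGgGAACACt
CSD2: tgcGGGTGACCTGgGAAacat

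In CCS, 15 of 21 bases pair, and 0.0984% of 27444 transcripts held a window that scored as well by mismatches weighted toward the seed. In CSD2, 13 of 21 pair, and 20.5% of transcripts scored as well, so letters alone do not set the CSD2 window apart.

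Genes of late seed development gave 6 members. Of 35 genes annotated as late embryogenesis with 4 values, 2 were members (5.71%), beside 2.68% of all nuclear genes with 4 values. Of those 35 genes, 25 were listed higher in 35S:miR396a and 3 lower in light, and 4 higher and 10 lower in the dark. Of the 6046 nuclear genes, 2520 were listed higher and 2065 lower in light, and 724 higher and 1078 lower in the dark. The seed-type tonoplast aquaporin genes were TIP3;1, with 4.73 and 3.10 FPKM in illuminated and dark 35S:miR396a against 0.38 and 0.14 FPKM in illuminated and dark Col-0, and BETA-TIP. BETA-TIP had 7.85 and 29.8 FPKM in illuminated and dark 35S:miR396a, against 0.253 and 13.7 FPKM in illuminated and dark Col-0. PER1, a seed peroxiredoxin, had 2.73 and 2.22 FPKM in illuminated and dark 35S:miR396a, against 0.506 and 0.26 FPKM in illuminated and dark Col-0. EEL, a bZIP factor that acts on embryo genes, and the late-embryogenesis genes M17 and M10 were the others. M17 had 13.4 and 9.36 FPKM in illuminated and dark 35S:miR396a, against 1.13 and 3.33 FPKM in illuminated and dark Col-0. The seed-reserve markers, which the rule leaves out, were also higher in 35S:miR396a in both conditions: all 10 of 10 had 4 values, and their summed level was 145 FPKM in illuminated and 41.0 FPKM in dark 35S:miR396a, against 20.9 FPKM in illuminated and 5.71 FPKM in dark Col-0. The reserves were higher after light in both genotypes, whereas of the 6 members 2 were listed lower after light in 35S:miR396a and 4 in Col-0. Of the 6046 nuclear genes, 30.5% were listed lower after light in 35S:miR396a and 36.5% in Col-0. The summed level of EM1 and EM6 was 9.51 and 2.38 FPKM in illuminated and dark 35S:miR396a, against 2.32 and 2.23 FPKM in illuminated and dark Col-0. In the dark the genes differed in direction. EM6 was lower in 35S:miR396a, at 1.82 against 2.01 FPKM in Col-0, and EM1 was higher, at 0.56 against 0.213 FPKM. The part of these markers in the members' values was not tested.

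Transporters and other genes of nutrient and ion balance gave 13 members with ratios of 2.01 to 15.2 in light and 2.01 to 2.76 in the dark. IRT3, a zinc and iron transporter, had 84.4 and 46.3 FPKM in illuminated and dark 35S:miR396a, against 32.3 and 22.7 FPKM in illuminated and dark Col-0. The phosphate transporter gene PHT1;1 had 62.9 and 62.5 FPKM in illuminated and dark 35S:miR396a, against 21.03 and 28.7 FPKM in illuminated and dark Col-0, and shares a stretch 97.7% identical with PHT1;2. The ammonium transporter gene AMT1;3 had 44.1 and 47.7 FPKM in illuminated and dark 35S:miR396a, against 11.6 and 17.3 FPKM in illuminated and dark Col-0. Substrates thus ranged over zinc, iron, phosphate and ammonium, and also peptides, which PTR5 carries. PTR5 had 11.6 and 2.10 FPKM in illuminated and dark 35S:miR396a, against 0.766 and 0.916 FPKM in illuminated and dark Col-0. The iron-deficiency factor bHLH39 and NAS2, a nicotianamine synthase, were members at under 10 FPKM in every group.

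The 7 members grouped as transcription factors, with EEL and bHLH39 placed in other groups, had ratios of 2.30 to 6.36 in light and 2.07 to 2.78 in the dark. NAC003 had 12.7 and 3.08 FPKM in illuminated and dark 35S:miR396a, against 2.00 and 1.45 FPKM in illuminated and dark Col-0. NAC6, also called ORE1, a promoter of leaf senescence, had 9.52 and 9.46 FPKM in illuminated and dark 35S:miR396a, against 2.25 and 4.26 FPKM in illuminated and dark Col-0. EBF2, the F-box protein that sends the ethylene factor EIN3 to degradation, had 102 and 219 FPKM in illuminated and dark 35S:miR396a, against 46.7 and 103 FPKM in illuminated and dark Col-0. In EBF2 the mean of illuminated 35S:miR396a lay just below that of dark Col-0. The 5 receptor-like kinases had ratios of 2.15 to 2.74 in light and 2.00 to 2.93 in the dark.

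The most abundant member was GASA4, a small cysteine-rich peptide regulated by gibberellin. It had 971 and 5807 FPKM in illuminated and dark 35S:miR396a, against 468 and 2390 FPKM in illuminated and dark Col-0. SAG21, a late-embryogenesis-type protein linked to oxidative stress and senescence, had 1068 and 2287 FPKM in illuminated and dark 35S:miR396a, against 380 and 797 FPKM in illuminated and dark Col-0. In GASA4 the light conditions differed more than the genotypes, so illuminated 35S:miR396a lay below dark Col-0, while in SAG21 both 35S:miR396a values lay above both Col-0 values. QQS, an orphan gene that affects starch content, had 33.8 and 62.6 FPKM in illuminated and dark 35S:miR396a, against 6.48 and 13.6 FPKM in illuminated and dark Col-0. Of the 162 products, 13 are annotated only as uncharacterized.

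Light over dark within a genotype was not used by the rule as a ratio, but it is built from the same means and is a description too. In 35S:miR396a, 24 members (14.8%) were listed higher after light and 22 (13.6%) lower, beside 32.3% and 30.5% of the 6046 nuclear genes and 18.3% and 24.6% of the 126 mirrored-rule genes. In Col-0, 8 members (4.94%) were listed higher and 53 (32.7%) lower, beside 25.7% and 36.5% of the 6046 and 36.5% and 8.73% of the 126. The median log2 ratio of light over dark was 0.00 in 35S:miR396a and -0.63 in Col-0, beside -0.06 and -0.35 over all nuclear genes with values above 0. For the mirrored-rule genes it was -0.27 in 35S:miR396a and 0.64 in Col-0. The rule and its mirror selected on the same Col-0 means in opposite directions, so nothing is read from the opposite signs, and the members' share listed lower in Col-0 was near that of all nuclear genes. Listed in neither light table were 83 members (51.2%) and 40 mirrored-rule genes (31.7%), beside 473 of the 6046 (7.82%). A gene needs to be in several tables to have 4 values, and members have the genotype tables for that, so these shares are not on an equal footing.

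Taken by member, 6 (3.70%) appeared as higher in both light tables and 19 (11.7%) as lower in both, beside 8.57% and 13.9% of the 6046 nuclear genes. Listed higher in 35S:miR396a alone were 15 (9.26%) and lower in Col-0 alone 31 (19.1%), beside 15.8% and 14.5%. Being listed in one genotype alone does not show a difference between them, which could not be tested. Among members with at least 1 FPKM in all 4 groups, DTX1 had the highest light response in both genotypes, with log2 ratios of 3.16 in 35S:miR396a and 2.40 in Col-0, followed by the ammonium transporter gene AMT1;2 at 2.10 in 35S:miR396a and 2.17 in Col-0. DTX1 overlaps AT2G04039 on the opposite strand, and without the library strand reads of the overlap cannot be told apart. Under the same limit AT5G02540, a Rossmann-fold protein gene, had the lowest, with -5.23 in 35S:miR396a and -4.64 in Col-0. It had 6.96 FPKM in illuminated and 261 FPKM in dark 35S:miR396a, against 2.55 FPKM in illuminated and 63.9 FPKM in dark Col-0. AT4G35720, AT5G02580 and AT5G44260 also had log2 ratios under -3 in both genotypes. Genes with strong light responses in either direction thus met the same rule.

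The log2 light response in 35S:miR396a less the one in Col-0 equals the difference of the 2 genotype ratios and is fixed by the values that chose the members. Its median was 0.48 on the log2 scale, beside 0.32 over all 5831 genes, and it ran from -1.81 in AT5G50335 to 4.09 in AT1G68250. It was above 0 for 122 of 162 members, above 1 for 50 and below -1 for 2, beside 3172, 2322 and 1935 of the 5831 genes. AT1G68250, of unknown function, had 7.94 and 7.43 FPKM in illuminated and dark 35S:miR396a, against 0.126 and 2.01 FPKM in illuminated and dark Col-0. Its 35S:miR396a values were close to each other, and its Col-0 values were far apart. GSTF2, AT1G49570 and M17, among members at 1 FPKM or more in all groups, showed the same shape with differences of 2.42, 2.11 and 2.07.

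**Figure D4:**
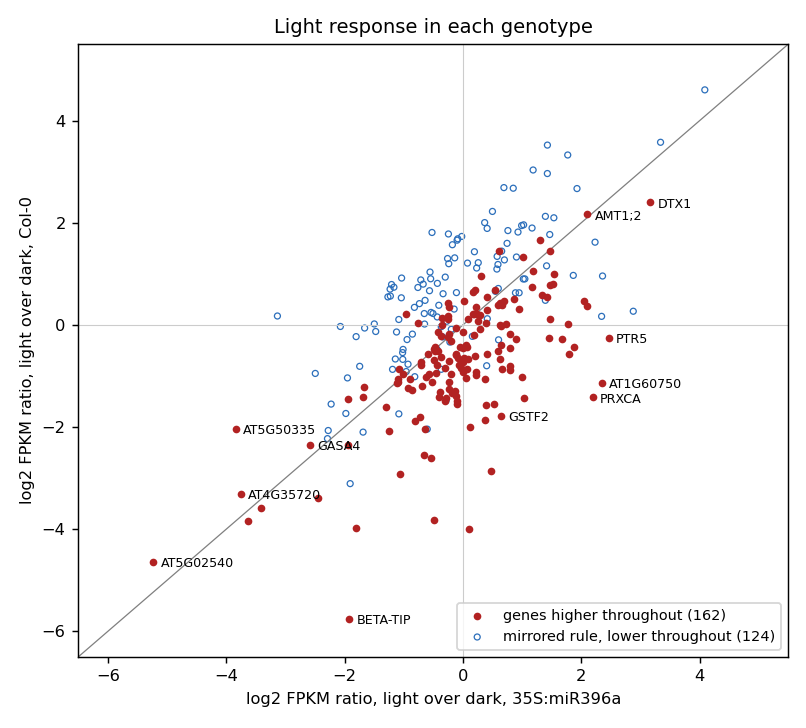
Log2 ratio of the authors' mean FPKM, light over dark, in 35S:miR396a (horizontal axis) and Col-0 (vertical axis), for the members (red) and mirrored-rule genes with values above 0 (blue); the diagonal marks equal responses. Of the members 122 lie below the diagonal, BETA-TIP far down at -1.92 in 35S:miR396a and -5.76 in Col-0, and AT5G02540 at the lower left end.

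By position, members lay on all 5 chromosomes, with 49, 30, 26, 22 and 35 on chromosomes 1 to 5. Next to another member in the annotation lay 8 (4.94%), in the pairs GSTF7 and GSTF6, PER4 and AT1G14550, IGMT3 and IGMT2, and EXT3 and AT1G21313. Of the 126 mirrored-rule genes, 2 (1.59%) lay next to another of their kind, as did 37.0% of the 6046 nuclear genes. Within 10 kb of another member lay 24 (14.8%), beside 7 mirrored-rule genes within 10 kb of another of their kind (5.56%) and 77.3% of the 6046. Such shares grow with the size of the set, and the sets differ in size, so no clustering is read from them. Another annotated gene overlapped 36 members, on the opposite strand for 31. Among these 31 were DTX1, GSTF2, EBF2, PTR5, TIP3;1, BETA-TIP and AT5G38900. Without the strand of the libraries, reads in such overlaps cannot be told apart.

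AT2G07698, AT2G07725 and AT2G07727 lie in the mitochondrial insertion of chromosome 2 and hold stretches 100% identical to the mitochondrial genes atp1, rpl5 and cob. AT2G07698 had 12.3 and 3.35 FPKM in illuminated and dark 35S:miR396a, against 1.08 and 1.47 FPKM in illuminated and dark Col-0. Listed higher in 35S:miR396a were 41.7% of the 6046 nuclear genes in light and 12.0% in the dark. Of 60 mitochondrion-encoded genes in the tables, 54 were listed higher and 3 lower in light, and 18 higher and 1 lower in the dark. Of the 60, 46 had 4 values and 44 had values above 0. The median ratios, of genes with values in both genotypes, were 8.61 in light and 2.06 in the dark. Ratios of the 3 nuclear copies ran from 10.6 to 12.9 in light and from 2.29 to 5.02 in the dark. Reads of these copies and of the mitochondrial genes cannot be told apart.

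Of 83 further genes in 14 lists of stress, hormone, nutrient, photosynthesis and organ genes, 64 had 4 values and PER1 alone was a member, a share near the 2.68% of all nuclear genes with 4 values. In light 41 of the 83 were listed higher in 35S:miR396a and 17 lower, and in the dark 11 were listed higher and 23 lower. Of the 6046 nuclear genes, 2520 (41.7%) were listed higher and 2065 lower in light, and 724 (12.0%) higher and 1078 lower in the dark. The 83 include genes without 4 values, so these counts are not on an equal footing. All 10 heat-shock genes had 4 values, of which 9 were listed higher in light, and in the dark 0 were listed higher and 6 lower. All 9 genes of oxidative and mitochondrial stress were listed higher in light, and in the dark 0 were listed higher and 2 lower. Of 17 genes of abscisic acid and dehydration, 13 were listed higher and 1 lower in light, and 3 higher and 9 lower in the dark. Other lists went the other way in light: of 6 photosynthesis genes 0 were listed higher and 6 lower, and of 8 flavonoid genes 1 was listed higher and 6 lower.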

How the data were processed

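Total RNA was made into messenger RNA libraries and sequenced on the BGISEQ-500 platform, per the labels' protocols. HISAT and Bowtie2 mapped the reads to the TAIR10 genome, per the submitters' processing notes, with neither versions nor library strand given in the sources used here. The deposited tables, 6 in number, hold for each pair of groups the mean FPKM of the 3 libraries of a group, made by the authors. Per the file headers they also hold a log2 fold change (the second group over the first) with DEGseq's p-value and q-value, while the design text names NOISeq. Only called genes are listed: the largest deposited q-value was 0.000999554.

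Group values were joined over the tables and differed between tables for 0 genes. A planned test on single libraries could not be made, so calls were counted. Pooled reads were estimated by inverting DEGseq's random-sampling model with equal totals; depth lay within 20% of its median for 92.3% to 93.8% of genes with transcripts of at least 1500 bases. This inversion was run on simulated data made with the same model, which checks its arithmetic only. Whether the deposited p-values follow that model, with equal totals, was not tested. All 162 identifiers matched the RefSeq TAIR10.1 annotation, which gave symbols, positions, promoters and microRNAs; near-identical stretches (95% identity over 200 bases) were searched with BLAST 2.17.0. Motif windows ran from 250 bases before to 50 bases after the start. Scripts used Python 3.11.15 with pandas 2.3.3.

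The members, gene lists and the rule for named genes were chosen with earlier results of these data known. Named were members in a list, the 10 largest smaller ratios, the 10 highest levels, the extremes of light response and its difference (at 1 FPKM or more in all groups), adjacent pairs and the genes at the limit; other names were chosen after their values were seen. Alternatives were other limits, scalings, calls, distances and windows.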

Additional observations from a re-analysis of the deposited data

Results flagged for a closer look

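Of the members, 3 were listed in opposite directions after light: higher in 35S:miR396a and lower in Col-0. That is 1.85% of the 162, beside 483 of the 6046 nuclear genes with 4 values (7.99%). The deposited log2 ratios, from the authors' deposited table, were 1.01 in 35S:miR396a and -1.46 in Col-0 for AT1G53625, and the computed difference was 2.47. For the oxidoreductase gene AT1G60750 they were 2.35 in 35S:miR396a and -1.11 in Col-0, and the difference was 3.48. For the peroxidase gene PRXCA they were 2.19 in 35S:miR396a and -1.39 in Col-0, and the difference was 3.61. The difference was not tested, since only group means are at hand.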

How the results depend on the processing

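The number of members was 309 with a 1.5-fold limit, 45 with 3-fold, 97 with a minimum of 5 FPKM, 95 with 1 FPKM added to both values and 392 by the authors' calls alone; it was 204 with a minimum of 1 FPKM and 169 with median scaling, of which 147 were shared with the 162. With 4-fold calls, the share of members listed after light was 4.32% higher and 4.94% lower in 35S:miR396a, and 1.23% higher and 10.5% lower in Col-0. Members at 3-fold had 8.89% listed lower in 35S:miR396a and a median log2 light ratio there of 0.22. Members with 5 FPKM in all groups had, in Col-0, 2.33% listed higher, 18.6% listed lower and a median of -0.52. With 1 FPKM added the Col-0 median was -0.39 and the median difference of light response 0.34; median scaling gave 0.23 for that difference. Adjacent members numbered 14 by the next protein-coding gene and 24 within 10 kb. In the 250 bases before the start alone, the W-box share was 46.9% of members, 25.4% of mirrored-rule genes and 28.4% of all promoters, the GRF-type share of members 1.85% and the telo-box share 0. Leaving out members that overlap or nearly match another gene, an alternative chosen after seeing the data, left 120 and moved no share of listed members by over 1.5 times. No paired analysis was possible because the tables hold group averages only, and leaving out single replicates was not run for the same reason. The spread between replicates is unknown for every value.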
